A study of Mus musculus with 11 samples.

Results

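Claudins are the membrane proteins that form the strands of tight junctions, where they close the space between neighbouring epithelial cells or open selective pores in it. The claudins described here are 8 genes chosen by symbol (Cldn1, Cldn2, Cldn3, Cldn4, Cldn6, Cldn7, Cldn12 and Cldn14), out of 20893 genes in the expression table of mouse livers with induced YAP. All 8 were in the table. The same table held 17 other claudin genes, which served as a comparison.

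RNA was purified from homogenized livers of C57BL/6 mice. The controls (n = 4) were ROSA26-rtTA-IRES-EGFP; WT and received doxycycline in the food for 7 days. The induced livers were ROSA26-rtTA-IRES-EGFP; tetYAP, with doxycycline for 3 days (n = 4) or 7 days (n = 3), so that the rtTA allele was common to all 11 animals and doxycycline to all groups, while no control was kept on doxycycline for 3 days. In this model a Cre driven by the albumin promoter switches on rtTA in cells of the hepatocyte lineage. The tet-responsive transgene encodes YAP with the S127A mutation, which alters an inhibitory phosphorylation site and leaves the protein constitutively active. The ages of the animals are not given in the sources used here.

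In the liver, tight junctions separate the bile canaliculi between hepatocytes, and the lumen of the bile ducts, from blood. Hepatocytes and the cholangiocytes of the ducts both have claudins, in different mixtures: claudin-1, claudin-2 and claudin-3 are known from hepatocytes, while claudin-4 and claudin-7 are better known from ductal and other simple epithelia. YAP is a transcriptional coactivator that reaches DNA mainly through TEAD factors and is kept in check by the Hippo kinases.

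Levels are eRPKM, the deposited unit, in which each value is a number of reads divided by gene length and sequencing depth. Control 4 was the shallowest library, with 1251396 reads assigned to genes, and 7-day liver 2 the deepest, with 5941357. The endogenous Yap1 row had means of 18.2 ± 3.10, 16.8 ± 1.82 and 18.4 ± 0.862 eRPKM (SD) in control, 3-day and 7-day livers, and the table has no row for the transgene. Cyr61, a standard YAP target, ranged from 5.76 to 14.4 eRPKM in controls, from 26.8 to 53.4 at 3 days and from 90.5 to 91.4 at 7 days, in the order of the labels. By Xist and Ddx3y levels the 7-day livers were all female, whereas the control and 3-day groups had 2 female and 2 male livers each. In 7-day liver 2, 64.3% of 1114 olfactory receptor genes had reads, against 29.8% and 36.4% in controls 1 and 2 and at most 12.0% in the other libraries. These 3 libraries carried a background of low values that matters for the scarce claudins below. So did 3-day liver 1, to a lesser extent in the share of genes with reads (12.0%). Its 95th percentile of olfactory receptor levels was 0.388 eRPKM, against 0.384 in control 2.

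The genes lie on 5 chromosomes (mm9, GENCODE M1). Cldn4 (chr5:135420996-135422804, minus strand) and Cldn3 (chr5:135462084-135463342, plus strand) are neighbours with 39280 bases between them. Cldn12 lies at chr5:5505109-5514958 (minus), Cldn7 at chr11:69778281-69781387 (plus), Cldn1 at chr16:26356728-26371927 (minus), Cldn14 at chr16:93919276-94009082 (minus), Cldn6 at chr17:23816332-23819413 (plus) and Cldn2 at chrX:136335367-136345925 (plus). Exons of 7 of the 8 genes overlapped no other gene. The end of Cldn3 shares 40 bases with Wbscr25 on the opposite strand, and the library kit did not keep strand, but Wbscr25 itself never exceeded 1.10 eRPKM.

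Because YAP acts through TEAD factors, the RefSeq promoters of the members, from 250 bases before to 50 bases after each annotated start, were searched for the TEAD core motif GGAATG on either strand. It occurred in 4 of 13 promoter windows of the 8 genes, against 14.7% of all 32851 windows. The matches are shown 5′ to 3′ on the gene's strand, with the motif (or CATTCC, its reverse complement) in capitals, since they tell which claudins carry the letters close to a start and which do not. The Cldn14 window lies at chr16:94009064-94009089, its motif starting 4 bases into the transcript, and those of Cldn7 at chr11:69778201-69778226 and Cldn6 at chr17:23816321-23816346. The windows of Cldn2 lie at chrX:136335190-136335215 and chrX:136335364-136335389. All positions are mm9, found by a single exact match of the RefSeq window (assembly GRCm38.p6).
Cldn14: ggacagagtcGGAATGgcatgttctg
Cldn7: cctggggaggGGAATGttgggcgtgt
Cldn6: cctccgccctCATTCCtactttcgac
Cldn2, first: ccccaaagcaGGAATGttctaaattc
Cldn2, second: ccaagggtttCATTCCcatctgtaag
The promoter windows of Cldn1, Cldn3, Cldn4 and Cldn12 held no match, nor did those at the other annotated starts of Cldn14 and Cldn7. The search describes letters in these windows only and says nothing of binding.

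Control livers had 4 abundant claudins, 1 of middling level and 3 that were scarce or absent. The means were 63.8 ± 7.33 eRPKM for Cldn12, 61.4 ± 9.04 for Cldn3, 51.0 ± 6.81 for Cldn2 and 42.8 ± 16.1 for Cldn1 (SD, n = 4), and the ranges of neighbours in this order overlapped. Cldn14 followed at 6.43 ± 1.68 eRPKM, with no overlap with the abundant genes. Cldn7 (0.548 ± 0.407) and Cldn6 (0.395 ± 0.428) stayed near the level of single reads, and Cldn4 had no read in any control. The summed level of the 8 genes lay between 181.7 and 255.4 eRPKM in control livers, between 237.6 and 297 in 3-day livers and between 209.4 and 272.7 in 7-day livers, so the total overlapped in all groups while its composition differed, as shown in the plot of shares.

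**Figure D1:**
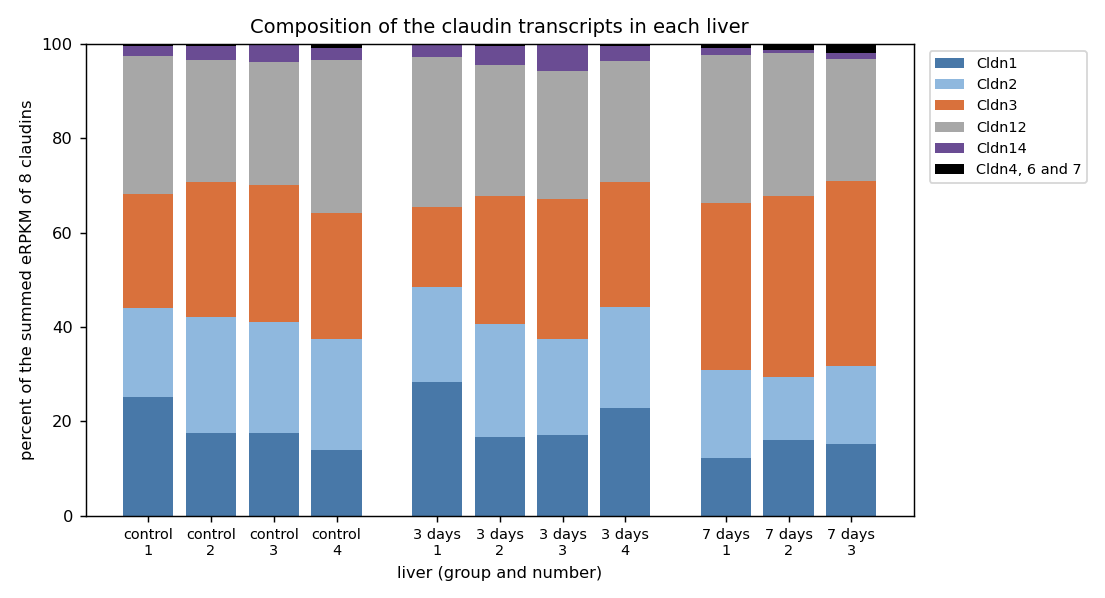
Share of each claudin in the summed eRPKM of the 8 genes (y axis, percent) in each of 11 livers (x axis, by group and number). Cldn3 made up 24.2 to 29% in controls and 35.4 to 39.4% at 7 days.

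After 7 days of YAP induction, Cldn3 was higher and Cldn14 lower in all 3 livers than in any control, but neither passed the adjusted threshold. Cldn1, Cldn2 and Cldn12, the other abundant claudins, overlapped their controls. Cldn4, with no read in the controls and 5 to 20 reads in the 7-day livers, was the only one of the 8 to pass the call, but it entered the test only through induced livers, so the call is a description of its detection and not independent support for a difference. To be called, a gene needed 2 things in limma, an adjusted p (Benjamini-Hochberg over the 14244 genes tested) under 0.01 and a log2 fold change of eRPKM + 0.5 larger than 0.5 in size. The count of 1 of 8 stands beside 23.8% of all tested genes called at 7 days, 18.0% higher and 5.77% lower. The 3 members whose groups did not overlap stand beside 50.0% of tested genes. At 3 days limma called 0 of the 8, and limma-voom on recovered reads also 0, with 0 at an unadjusted p under 0.05, beside 0.0421% of tested genes called. Between 3 and 7 days Cldn14 was called, against 19.3% of tested genes (14.0% higher and 5.31% lower). In that last comparison the groups of 4 members did not overlap, beside 45.1% of tested genes. Cldn3 and Cldn6 were higher and Cldn2 and Cldn14 lower at 7 days. Cldn6 entered the test through no 3-day liver, so its place among them is a description only.

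**Figure D2:**
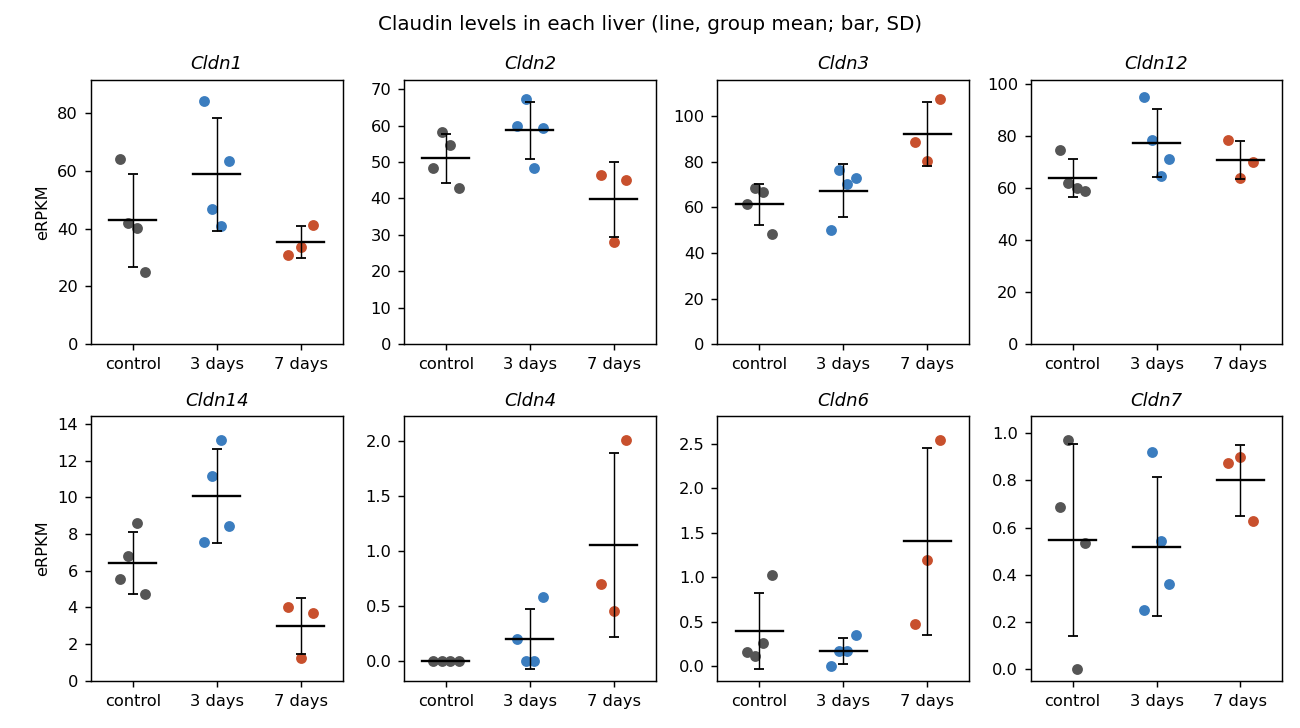
eRPKM (y axes, linear, each with its own range) of the 8 claudins in control, 3-day and 7-day livers, 1 point per liver, with the group mean (line) and SD (bar). Cldn3 and Cldn4 lie above every control at 7 days, Cldn14 below every control, and Cldn4 is at 0 in all 4 controls.

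Cldn3, a sealing claudin of hepatocytes and bile ducts, was at 61.7, 68.6, 66.7 and 48.5 eRPKM in controls 1 to 4 and at 50.2, 76.4, 70.1 and 72.8 in the 3-day livers. At 7 days it was at 88.8, 80.3 and 107.5 eRPKM. All 7-day livers were above all others, and the 3-day livers overlapped the controls. The 7-day mean was 1.5 times that of controls. The log2 fold change was 0.59 ± 0.18 (SE) with an adjusted p of 0.0237 in limma at 7 days against control, and 0.46 with an adjusted p of 0.0684 against 3 days. With median-ratio size factors the value against control was 0.31 (adjusted p = 0.163), and with quantile normalization 0.87 (adjusted p = 0.00121). At 3 days against control it was 0.13, with a 95% interval of -0.24 to 0.50.

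Cldn2, the claudin that forms a pore for small cations and water and is graded across the liver lobule in rodents, had the opposite sign. It was at 48.4, 58.2, 54.6 and 42.8 eRPKM in controls, at 59.9, 67.2, 48.4 and 59.2 at 3 days and at 46.5, 27.9 and 44.9 at 7 days. The lowest value, in 7-day liver 2, was below every control, and the other 7-day livers were within the control range. The 7-day livers were all below the 3-day livers. The log2 fold change was -0.38 (95% interval -0.80 to 0.04) at 7 days against control and -0.58 ± 0.19 at 7 days against 3 days, with limma adjusted p-values of 0.141 and 0.0340. Without 7-day liver 2 these were -0.15 and -0.35, with adjusted p-values of 0.569 and 0.175.

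In the ratio of Cldn3 to Cldn2 within a liver, a scaling factor common to all genes of the library cancels. Other effects of depth or normalization on the ratio were not tested. The ratio lay between 1.13 and 1.27 in controls, between 0.838 and 1.45 in 3-day livers and between 1.91 and 2.88 in 7-day livers. Cldn3 therefore exceeded Cldn2 by more in each 7-day liver than in any other liver. The ratio of Cldn3 to Cldn1 lay between 0.962 and 1.93 in controls, between 0.596 and 1.72 in 3-day livers and between 2.40 and 2.87 in 7-day livers, again without overlap at 7 days. These ratios were chosen after the values were seen and carry no test.

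Cldn1, a sealing claudin whose loss in people causes neonatal ichthyosis with sclerosing cholangitis, had the largest SD of the abundant genes in controls and at 3 days, and the smallest at 7 days. It was at 64.1, 41.9, 40.2 and 25.1 eRPKM in controls, at 84.1, 46.7, 40.8 and 63.2 at 3 days and at 30.9, 33.5 and 41.4 at 7 days. The control range alone covered all 7-day livers. The log2 fold change was -0.21 at 7 days against control, with a 95% interval of -0.85 to 0.43, 0.47 (interval -0.12 to 1.06) at 3 days against control, and -0.68 (interval -1.32 to -0.04; limma adjusted p = 0.0883) between 3 and 7 days.

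Cldn12, which lacks the end sequence by which most claudins bind ZO proteins, had the narrowest intervals. Its controls ran from 59.0 to 74.7 eRPKM, its 3-day livers from 64.5 to 94.8 and its 7-day livers from 63.8 to 78.5. The log2 fold change at 7 days against control was 0.15 (95% interval -0.19 to 0.49), at 3 days against control 0.26 (interval -0.06 to 0.58) and between the 2 times -0.11 (interval -0.46 to 0.23).

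**Figure D3:**
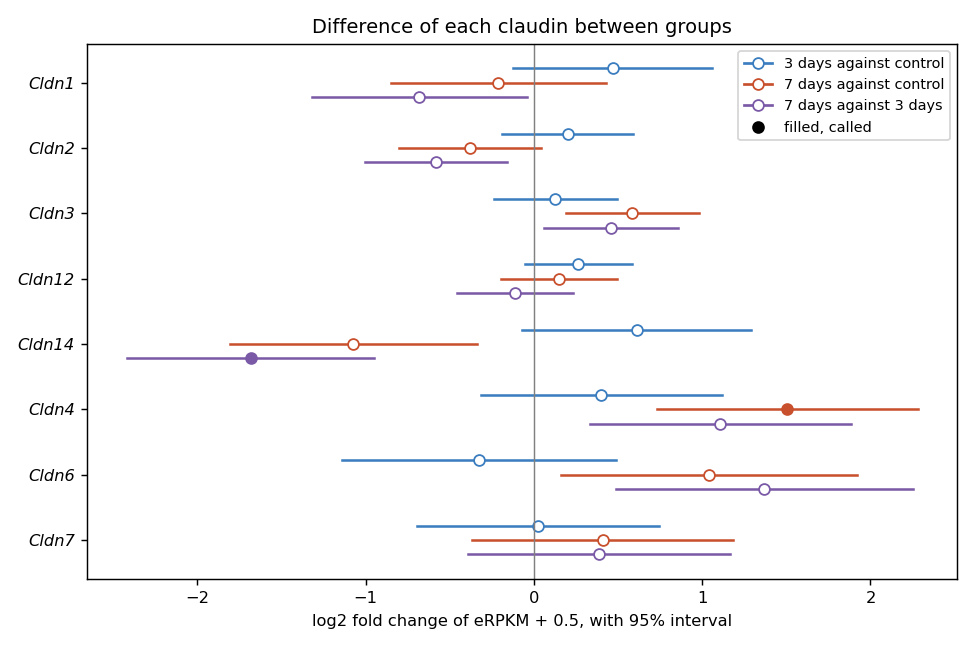
Log2 fold change of eRPKM + 0.5 (x axis) with its 95% interval for each claudin (y axis) in 3 comparisons. Filled points passed the call: Cldn4 at 7 days against control and Cldn14 at 7 days against 3 days.

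Cldn14, known for its part in hearing and also transcribed in liver and kidney, had log2 fold changes of opposite sign against control at the 2 times. It was at 5.57, 6.81, 8.61 and 4.73 eRPKM in controls, at 7.59, 11.2, 13.1 and 8.44 at 3 days and at 4.05, 1.24 and 3.72 at 7 days. The 3-day livers overlapped the controls, with 3-day livers 2 and 3 above every control, whereas the 7-day livers were below all others. The fall from 3 to 7 days was called, with a log2 fold change of -1.68 ± 0.34 and a limma adjusted p of 0.00253, and the mean went from 10.1 ± 2.54 to 3.00 ± 1.53 eRPKM. Against control the log2 fold change was 0.61 (95% interval -0.07 to 1.29) at 3 days and -1.07 ± 0.34 at 7 days, with adjusted p-values of 0.473 and 0.0245, and the 7-day value was -0.63 (adjusted p = 0.122) without 7-day liver 2. The call between 3 and 7 days rested partly on 7-day liver 2, the lowest of the 7-day livers: without it the log2 fold change was -1.24 with an adjusted p of 0.0108 (0.000215 to 0.0263 over all alternatives). With female livers only, it was -1.78 with an adjusted p of 0.0185.

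Cldn4, a claudin of ducts and other simple epithelia that sits next to Cldn3 in the genome, went from undetected to detected. There was no read in the 4 controls, which together allow a level of up to 0.123 eRPKM at the limit that a count of 0 allows (3 reads over the group, counting error only). At 3 days the 4 livers held 1, 0, 0 and 4 reads (0.201, 0, 0 and 0.582 eRPKM). At 7 days they held 7, 5 and 20 reads (0.700, 0.450 and 2.02 eRPKM).

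All 7-day livers had Cldn4 reads and so lay above the controls, but not all lay above the highest 3-day liver. Pooled over the group, the 7-day level of 1.03 eRPKM was 8.38 times the control limit, with no counting error taken on the 7-day side. The limma log2 fold change was 1.51 ± 0.36 with an adjusted p of 0.00543 at 7 days against control, and 1.11 ± 0.36 with an adjusted p of 0.0297 against 3 days; as the controls are at 0, the fitted value depends on the 0.5 added. Cldn4 passed the filter on low values (0.5 eRPKM in at least 3 libraries) through 1 liver of the 3-day group and 2 of the 7-day group, and through no control. In 7-day liver 2 the 95th percentile of olfactory receptor genes was 0.700 eRPKM, above the Cldn4 value of 0.450. In 7-day livers 1 and 3 that percentile was 0. In 3-day liver 1 it was 0.388 eRPKM, above the Cldn4 value of 0.201, and in 3-day liver 4 it was 0. Without liver 2 the pooled 7-day level was 1.36 eRPKM from 27 reads, 11 times the control limit. Without liver 1 it was 1.19 from 25 reads (9.66 times). Without liver 3, which held most of the reads, it was 0.568 from 12 reads (4.62 times). Without liver 3 the log2 fold change against 3 days was 0.69, with an adjusted p of 0.153. The call was lost when any 1 control, 7-day liver 1 or 7-day liver 3 was left out, with adjusted p-values of 0.0119 to 0.0318 (0.00377 to 0.0906 over all alternatives). With female livers only, the log2 fold change was 1.51 with an adjusted p of 0.0509.

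Cldn6, a claudin of embryonic epithelia that is largely silent in adult tissue, held 1, 1, 1 and 2 reads in controls (0.165, 0.117, 0.268 and 1.03 eRPKM). The 3-day livers held 0, 1, 1 and 2 reads (0, 0.178, 0.175 and 0.350 eRPKM), and the 7-day livers 4, 11 and 21 reads (0.481, 1.19 and 2.55 eRPKM). The 7-day livers were above all 3-day livers and above 3 of the 4 controls; control 4, the shallowest library, reached 1.03 eRPKM with 2 reads. The log2 fold change was 1.04 ± 0.41 at 7 days against control (limma adjusted p = 0.0601) and 1.37 ± 0.41 against 3 days (adjusted p = 0.0205), and neither was called. Cldn6 passed the filter on low values through 7-day livers 2 and 3 and control 4, and through no 3-day liver. Its value against 3 days is thus a description and not independent support for a difference. Without 7-day liver 3 the value against control was 0.63 (adjusted p = 0.277). Cldn9, which lies 139 bases from Cldn6, had reads in a single library.

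Cldn7, an epithelial claudin that binds the surface protein Epcam, had few reads in every group. A control liver held 0 to 8 reads of it, a 3-day liver 1 to 5 and a 7-day liver 5 to 8. Its means were 0.548 ± 0.407, 0.520 ± 0.293 and 0.80 ± 0.149 eRPKM, with overlap between all groups. The log2 fold change was 0.41 at 7 days against control, with a 95% interval of -0.37 to 1.19, and 0.02 (interval -0.70 to 0.74) at 3 days. Epcam itself was at 0.626 ± 0.604 eRPKM in controls and 1.66 ± 0.425 at 7 days, with a log2 fold change of 1.10 and an adjusted p of 0.0599.

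The 2 tested genes whose course over the 11 livers was most like that of Cldn4, by the root mean square difference of centred log2 values, were Cdr2 (0.299), which encodes a cytoplasmic coiled-coil protein, and Ehd1 (0.340), which acts in endosome recycling. Cdr2 averaged 1.16, 1.44 and 3.23 eRPKM in control, 3-day and 7-day livers, and Ehd1 averaged 16.0, 23.4 and 57.3.

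Among the 17 other claudins, 5 passed the filter and 11 averaged under 0.5 eRPKM in every group. Cldn5, the claudin of endothelial cells, was called higher at 7 days. It was at 7.74, 8.22, 7.40 and 4.93 eRPKM in controls, at 11.8, 7.93, 6.14 and 12.5 at 3 days and at 18.8, 20.7 and 20.3 at 7 days, with a log2 fold change of 1.45 ± 0.25 against control (limma adjusted p = 0.000705) and 1.07 ± 0.25 against 3 days (adjusted p = 0.00632). No 7-day liver overlapped any other. Cldn15, a pore-forming claudin best known from intestine, was called as well, at 1.04 ± 0.26 (adjusted p = 0.00782), on 1 to 6 reads per control and 12 to 14 per 7-day liver, but in only 6 of 25 alternatives, against 24 of 26 for Cldn5. The Cldn5 call between 3 and 7 days held in 14 of 26 and was lost, for example, with size factors (adjusted p = 0.0180), with quantile normalization (0.0232) and in female livers (0.0197). Cldn20 (0.611 to 5.88 eRPKM over all livers) and Cldnd1, a claudin domain protein (13.8 to 21.2 eRPKM), were not called in any comparison. Cldnd2 was above 1 eRPKM in 1 of the 7-day livers alone, at 2.38.

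Genes of proteins that anchor claudins to the cell cortex, or share the junction with them, were also examined. Of 21 tested tight junction partners, 6 were called higher at 7 days and none lower, beside 18.0% and 5.77% of all tested genes, with a median log2 fold change of 0.54, beside 0.26 over all tested genes. A share of this size is not far from that of all genes. Cgn, the cortical adaptor cingulin, rose by 1.91 ± 0.24 (adjusted p = 7.74e-05), from a mean of 6.57 to 25.8 eRPKM. Tjp1, which encodes the scaffold ZO-1, rose by 1.02, from a mean of 23.2 to 47.3 eRPKM. The polarity genes Pard6b and Crb3 rose by 1.35 and 1.27, and the adhesion genes F11r (JAM-A) and Cxadr by 1.2 and 0.76. Occludin (Ocln) was at -0.26 with an adjusted p of 0.485. Between 3 and 7 days 4 were called, all higher, beside 14.0% of all tested genes: Cgn, Tjp1, Pard6b and Marveld2 (tricellulin).

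**Figure D4:**
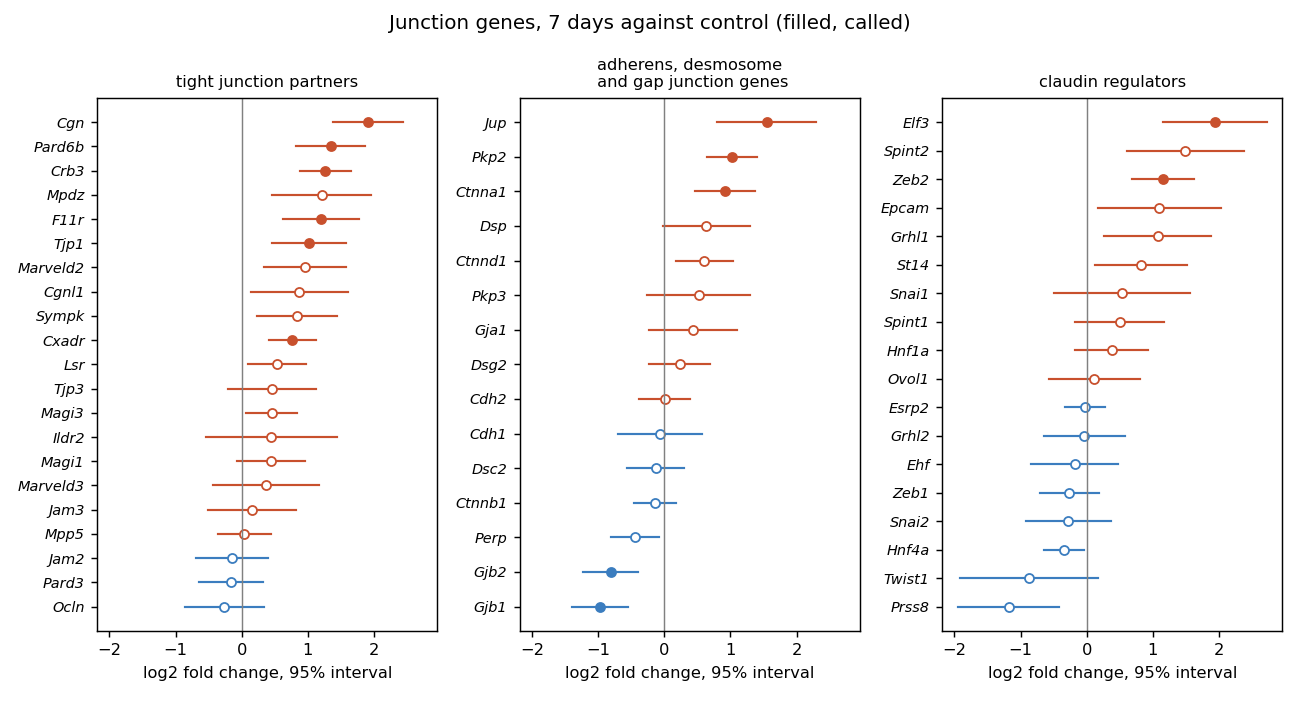
Log2 fold change at 7 days against control (x axis, with the 95% interval) of each tested gene of 3 lists (y axis). Filled points passed the call: 6 of 21 tight junction partners, 5 of 15 genes of the other junctions and 2 of 18 regulators.

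Of 15 genes of adherens junctions, desmosomes and gap junctions, 3 were called higher and 2 lower at 7 days, with a median of 0.23, where 18.0% of all tested genes were called higher and 5.77% lower. The plaque genes Jup (plakoglobin) and Pkp2 (plakophilin-2) rose by 1.55 and 1.02, and Ctnna1 (alpha-catenin) by 0.92. The hepatocyte connexins Gjb1 and Gjb2 fell by 0.97 and 0.81 on the log2 scale, Gjb1 going from a mean of 273.6 to 135.7 eRPKM. Its controls spread from 204.9 to 376 eRPKM on 725 to 1738 reads. Its 7-day livers lay between 129.5 and 141.5 eRPKM on 1070 to 1249 reads. The part of depth in the connexin values was not tested. E-cadherin (Cdh1) was at -0.06. Of 18 tested regulators of claudins or of epithelial state (transcription factors, a splicing factor, a surface protein, proteases and their inhibitors), 2 were called, beside 23.8% of all tested genes: Elf3, an epithelial ETS factor, at 1.94 and Zeb2, a repressor of epithelial genes, at 1.16, with a list median of 0.245. Between 3 and 7 days the same 2 genes, Elf3 and Zeb2, were called, beside 19.3% of all tested genes. No gene of the 3 lists was called at 3 days, beside 0.0421% of all tested genes. Limma-voom on recovered reads called none either.

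Whole liver holds many cell types, and fewer cells of a type cannot be told apart from less RNA per cell. Markers of several types differed between 7-day and control livers. Of 8 hepatocyte markers 5 were called lower (such as Cyp2e1, by 2.0 on the log2 scale), beside 5.77% of all tested genes. The summed level of the 8 lay between 1724 and 4641 eRPKM in controls and between 1112 and 1298 in 7-day livers. Alb reads did not scale with depth, at 2417 to 3102 per control although control depth ran from 1251396 to 5495697. Alb held 2840 to 2934 reads per 7-day liver. Cyp2e1 held 1721 to 2353 reads per control and 968 to 1029 per 7-day liver. The part of depth in the sums was not tested. Of 7 tested biliary markers 2 were called higher, Prom1 (2.92) and Krt7 (1.51), beside 18.0% of all tested genes. Those not called were Krt19, Sox9, Spp1 and Muc1, at 1.57, 0.95, 0.74 and 0.35, and Cd24a at -0.009. The list's sum lay between 45.0 and 61.9 eRPKM in controls, 55.0 and 92.2 at 3 days and 85.7 and 133.6 at 7 days. Krt7 ranged from 0 to 0.785 eRPKM in controls and averaged 1.92 at 7 days. Of 8 endothelial markers 2 were called higher (Lyve1 and Cdh5, at 1.93 and 1.5), beside 18.0% of all tested genes, while Vwf, Tek and Kdr were at -0.34, -0.29 and -0.06 and were not called. The list had sums between 62.4 and 123.3 eRPKM in controls and between 156.4 and 188.3 in 7-day livers, beside the rise of Cldn5. Of 7 leukocyte markers 4 were called higher, beside 18.0% of all tested genes: Cd14 (3.38), Itgam (3.26), Cd68 (2.61) and Ptprc (1.96). Clec4f, Cd79a and Cd3e, at 0.87, 0.215 and 0.02, were not called. The list's sums lay between 76.2 and 140.8 eRPKM in controls and between 310.2 and 357.8 in 7-day livers. Of 6 stellate cell markers 2 were called lower, beside 5.77% of all tested genes: Reln and Rgs5, which fell by 1.22 and 0.99 on the log2 scale. Lrat, Col1a1, Des and Pdgfrb, at -1.18, -0.25, -0.21 and -0.16, were not called. The list's sums lay between 93.4 and 114.7 eRPKM in controls and between 52.6 and 59.1 in 7-day livers. Of 5 mesothelial markers limma called none, beside 23.8% of all tested genes. Upk3b, Msln, Lrrn4 and Upk1b were at 1.03, 1.02, 0.78 and 0.51, and Gpm6a at -0.88. The part of cell composition in the claudin values was not tested.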

How the data were processed

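RNA-seq of 11 livers was analysed (4 controls, 4 at 3 days and 3 at 7 days of YAP induction), grouped by GEO's labels. Libraries were made from total RNA with the TruSeq v2 kit; the authors aligned reads to mm9 with TopHat2 (2.0.8), and the submitters' processing notes name featureCounts (1.4.5-p1). The deposited values are RPKM per gene (headed eRPKM). Columns of the authors' own 7-day comparison (mean, log2 fold change, adjusted p) were not used. Counts were not among the files, but 100.00% of 177553 values above 0 came out as whole reads within 0.1 read; these reads give the depths (1251396 to 5941357).

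limma 3.58.1 (R 4.3.3, trend) was fitted on log2(eRPKM + 0.5) for the 14244 genes that reached 0.5 eRPKM in 3 or more libraries, with all groups in 1 fit and no covariate; fold changes of low genes are understated on this scale. Calls needed an adjusted p (Benjamini-Hochberg, over all genes tested) below 0.01 and a log2 fold change larger than 0.5 in size. The scripts were tested on simulated data. Limma-voom on the recovered reads called 1, 3750 and 3605 genes (3 days and 7 days against control, 7 against 3 days), where limma on eRPKM called 6, 3383 and 2753. Nothing in the labels says more than that the livers are separate samples, so p-values measure the spread between these samples. Intervals are at 95%, and floors cover counting error only.

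The members and the gene lists were chosen with earlier results of these data known, and 2 genes of the lists are not reported here. Every member is named, as are other claudins called or at 1 eRPKM or more on average in a group, the called list genes with the largest changes, and the 2 genes most like each member called at 7 days. Genes named as checks (Yap1, Cyr61, Wbscr25, Cldn9, Cldnd2, olfactory receptors, and uncalled list genes) and within-liver ratios were chosen after their values were seen. Alternatives covered the pseudocount, filter, scaling, samples, covariates, replicate number, test and threshold.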

Additional observations from a re-analysis of the deposited data

Results flagged for a closer look

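A gap test on sets of 4 livers (Dixon's test) passed for 2 of 23 sets of claudin values examined, where chance passes about 1 in 20. Control 4 stood apart in Cldn6, with a gap of 0.835 of the group's range, on 2 reads in the shallowest library. The 3-day liver 1 stood apart in Cldn20, below the other 3, with a gap of 0.965 on 3 reads against 7 in each of the others.

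By the test of 7 days against 3 days, the effects differed for 12 of the claudins, junction genes and regulators screened. The genes screened were the 8 members, 5 other claudins, 21 tight junction partners, 15 other junction genes and 18 regulators. Marker genes were not screened. The 12 stand beside 19.3% of all tested genes called in that comparison. Among claudins those that differed were Cldn14 (log2 difference -1.68) and Cldn5 (1.07). Among tight junction partners they were Cgn (1.85), Marveld2 (1.195), Tjp1 (1.13) and Pard6b (0.99). Among the other junction genes they were Jup (1.68), Ctnna1 (0.82), Pkp2 (0.73) and Gjb1 (-0.97), and among the regulators Elf3 (1.87) and Zeb2 (1.27). Both times were compared with the same 4 controls, and the 7-day group was all female.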

How the results depend on the processing

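Of 615 alternative values for single claudins, 574 kept their direction and their side of the threshold. The 3-day count of 0 members called held in all 26 alternatives. Members called at 7 days against control (1) became 2 with median-ratio size factors, with quantile normalization and with the suffix MF (in the column names of 3 livers, unexplained) as a covariate, 3 at an adjusted p under 0.05, and 0 with a mean of at least 1 eRPKM (which leaves Cldn4, Cldn6 and Cldn7 untested), with log2 Xist or log2 depth as a covariate, in female livers only, and without the 3 libraries with the most genes above 0 (chosen after seeing the data). Leaving out 1 liver gave 0 to 1. From 3 to 7 days (1 member) the count was 2 with size factors, quantile normalization and the replicate block, 4 at an adjusted p under 0.05, 0 in female livers and without the 3 libraries, and 0 to 2 leaving out 1 liver. Except where fewer genes or samples entered the fit, the cause was not tested.

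Genes called at 3 days (6) were 3 without a filter, 12 with size factors, 0 with only the 2 compared groups, 3 with the replicate block, 10 with the MF suffix, 16 with Xist, 1 with depth, 1 with limma-voom, 41 at an adjusted p under 0.05, and 0 to 54 leaving out 1 liver. At 7 days against control (3383) there were 1676 with depth, 2128 in female livers, 5390 at an adjusted p under 0.05, 1321 without the 3 libraries, and 2057 to 3684 leaving out 1 liver. Between 3 and 7 days (2753) there were 1679, 1424, 5085 and 1129 in the same order, and 1412 to 3683. Correlations of same-numbered livers of different groups ran from -0.222 to 0.269 (2 of 10 above 0.1). Those of differently numbered livers ran from -0.275 to 0.238. The numbers thus showed no pairing, but groups this small cannot exclude it. The replicate block called 2720 genes at 7 days against control.

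The median log2 fold change of all genes at 7 days against control was 0.26, and 0.02 with size factors and -0.08 with quantile normalization. Calls split 2561 higher and 822 lower, against 1948 and 1281, and 1857 and 1821. Cldn3 was then at 0.31 with size factors (adjusted p = 0.163) and 0.87 with quantile normalization (adjusted p = 0.00121). Cldn14 was called in both (-1.30 and -1.74), and Cldn4 with size factors (1.395) but not with quantile normalization (0.92, adjusted p = 0.0906).

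Values that changed sign were called neither before nor after. At 3 days these were Cldn2 (-0.073) and Cldn6 (0.14) in female livers, and Cldn7 with a pseudocount of 1 (-0.0030), with depth (-0.071) and leaving out 1 liver (-0.30 to 0.22). At 7 days against control they were Cldn1 without the 3 libraries (0.17) and leaving out 1 liver (-0.44 to 0.0058), Cldn12 with size factors (-0.13) and Cldn7 with quantile normalization (-0.0093). Between 3 and 7 days they were Cldn12 with quantile normalization (0.23) and in female livers (0.059), and Cldn7 with quantile normalization (-0.11). At 7 days against control, called tight junction partners ranged from 2 to 9 over the alternatives, other junction genes from 1 to 6 and regulators from 0 to 5. Depth limits Cldn4, Cldn6 and Cldn7, which had at most 21 reads in any liver.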
